A study of Mus musculus with 18 samples.

Results

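Mature miRNAs of mouse embryonic stem cells (ESCs) carrying the column code P15 were compared with those of day 5 outgrowths of the inner cell mass (ICM), the stage sampled last before the ESCs. The members are the 2 libraries of each group, 4 of the 18 libraries of the series, chosen by the column codes of the deposited table with all of its 1390 miRNA rows. ICMs were freed by immunosurgery from E3.5 blastocysts of superovulated mice and plated on gelatin in R2i medium, which is N2B27 with leukemia inhibitory factor, 1 μM PD0325901 (a MEK inhibitor) and 10 μM SB431542 (an inhibitor of the TGF-beta type I receptor). Day 5 libraries came from such outgrowths after 5 days, and ESC libraries from cells passaged on gelatin in the same medium, so both groups were exposed to both inhibitors. The description and the column of the ESC libraries give passage 15 and their titles give passage 2, so the group is called P15 as a code and no passage order is read from it. The labels do not say whether the 2 libraries of a group came from separate embryos, lines or cultures. P-values therefore measure only spread between libraries, pooled from the replicates of all 9 groups of the series.

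A miRNA is cut from a hairpin by Drosha and Dicer, and its 5p or 3p arm guides Argonaute to mRNAs, mostly by pairing of the seed, bases 2 to 8. The miR-290-295 cluster is the main miRNA cluster of naive mouse ESCs and shares its seed with miR-302, which marks the primed epiblast. Other abundant ESC miRNAs come from miR-17-92 and its paralogs. The Dlk1-Dio3 region of chromosome 12 is imprinted, and its large miRNA clusters are transcribed from the maternal allele. The miR-465/miR-470/miR-871 cluster on the X chromosome is best known from male germ cells.

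The following mature sequences (RefSeq, GRCm38.p6) belong to miRNAs described below, with the seed in capitals; miR-92a-3p, miR-92b-3p and miR-181d-5p, which did not pass the test, are shown for the seed they share with others. They are ordered as miRNAs that were higher in P15, miRNAs with the AUUGCAC seed, miRNAs with the AAGUGCU seed, miR-181 members, Dlk1-Dio3 members and X-linked members.
miR-183-5p: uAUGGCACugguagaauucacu
miR-182-5p: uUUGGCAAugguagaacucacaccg
miR-191-5p: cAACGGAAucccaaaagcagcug
miR-184-3p: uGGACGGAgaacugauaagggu
miR-210-5p: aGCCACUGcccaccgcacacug
miR-6240: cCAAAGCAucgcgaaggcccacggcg
miR-25-3p: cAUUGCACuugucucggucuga
miR-92a-3p: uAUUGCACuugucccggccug
miR-92b-3p: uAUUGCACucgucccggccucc
miR-295-3p: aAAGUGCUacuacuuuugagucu
miR-294-3p: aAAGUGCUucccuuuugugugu
miR-302b-3p: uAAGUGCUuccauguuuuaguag
miR-181c-5p: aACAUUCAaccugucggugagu
miR-181d-5p: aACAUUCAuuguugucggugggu
miR-667-3p: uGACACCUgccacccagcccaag
miR-540-3p: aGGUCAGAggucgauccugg
miR-409-3p: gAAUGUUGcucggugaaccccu
miR-541-5p: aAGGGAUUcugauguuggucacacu
miR-465a-3p: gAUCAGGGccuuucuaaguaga
miR-465c-5p: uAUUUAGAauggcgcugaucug
A RefSeq sequence was found by name for 1166 of the 1390 rows, which held 86.2% to 89.9% of the normalized counts of the 4 libraries.

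The deposited values are normalized counts, on which levels of a miRNA can be compared between libraries. Their totals were 696629 and 783325 in the day 5 libraries and 1191130 and 1265117 in the P15 libraries, where the 3 most abundant miRNAs held 49.6% and 49.9% of the total against 37.3% and 40.5% at day 5. Replicates correlated at r = 0.977 (P15) and 0.962 (day 5) across miRNAs, on log2 values. The median absolute log2 difference between replicates was 0.16 in P15 and 0.41 at day 5, so day 5 is the noisier group. Of the 1390 rows, 811 reached a normalized count of 10 in at least 2 of the 18 libraries and were tested, 93 of them at 0 in all 4 libraries here. Some abundant miRNAs are listed at exactly 0 in single libraries or groups, and no change is given for those.

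At an adjusted p below 0.05 (limma, Benjamini-Hochberg over 811 miRNAs), 148 miRNAs differed between P15 and day 5, or 18.2% of those tested. P15 was higher for 55 (6.78%) and lower for 93 (11.5%), and the libraries of the groups did not overlap for any of the 148. Without regard to the test, both P15 libraries lay above both day 5 libraries for 213 miRNAs (26.3%) and below them for 288 (35.5%). The split between directions depended on scaling. With all libraries brought to the same total it was 27 higher and 128 lower, and the median over the 811 went from -0.07 to -0.57 on the log2 scale. With quantile normalization it was 73 higher and 89 lower, with a median of 0.00. The Dlk1-Dio3 region supplied 36 of the 93 lower miRNAs and the X-linked miR-465/miR-470/miR-871 cluster 13, which left 44 from elsewhere.

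Among the 5 most abundant miRNAs of P15 the largest rise was that of miR-183-5p, which comes from a cluster with miR-96 and miR-182 that is known from sensory organs and epithelia, at chr6:30169711-30169732 on the minus strand. It held 6532 and 16229 normalized counts in the day 5 libraries and 86214 and 95936 in P15, a log2 change of 3.14 (SE 0.63, limma adjusted p = 0.00415). Both P15 libraries lay far above day 5, but the day 5 libraries differed from each other, and without day 5 replicate 1 the change was 2.49 (limma adjusted p = 0.0516). Its neighbour miR-182-5p held 56076 and 84301 at day 5 and 194670 and 199202 in P15 (log2 change 1.52, SE 0.28, limma adjusted p = 0.00233). Under quantile normalization its change was 0.00, but miR-182-5p had the same rank in all day 5 and P15 libraries. That method gives equal ranks equal values, so it could show no change here. The remaining members of the cluster, miR-96-5p among them with 49 and 146 against 346 and 255, did not pass the test. Thus 2 of 6 tested members rose, against 6.78% over all tested miRNAs. The cluster made up 9.08% and 12.9% of all normalized counts at day 5 and 23.7% and 23.4% in P15.

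The most abundant miRNA of P15 was miR-191-5p, which lies with miR-425 at chr9:108568325-108568347 in an exon of 4833445I07Rik on the plus strand. Its counts were 30540 and 75122 at day 5 and 257990 and 279667 in P15 (log2 change 2.49, SE 0.57, limma adjusted p = 0.00922). The groups did not overlap, yet the call was lost without P15 replicate 2 (limma adjusted p = 0.0611) and without day 5 replicate 1 (limma adjusted p = 0.107, change 1.84). From the same host transcript, miR-425-5p rose from 602 and 507 to 1201 and 1306 (log2 change 1.18, SE 0.19, limma adjusted p = 7.69e-04), and at equal totals its change was 0.45 (limma adjusted p = 0.353). The pair of hairpins held 4.47% and 9.66% of the counts at day 5 and 21.8% and 22.2% in P15. Of its 4 tested miRNAs 2 rose, against 6.78% over all tested miRNAs.

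The other large rises by the naming rule were of less abundant miRNAs. MiR-184-3p, known from lens and cornea, held 9 and 22 at day 5 and 604 and 666 in P15 (log2 change 5.39, SE 1.47, limma adjusted p = 0.024). Leaving out any 1 of the 4 libraries ended this call, with limma adjusted p between 0.0616 and 0.15. MiR-6240, a high-numbered entry at chr5:114851973-114851998, held 361 and 392 at day 5 and 4157 and 4967 in P15 (log2 change 3.59, SE 0.37, limma adjusted p = 3.45e-05). In the ICM it held 2186 and 2462, and in the P2 and P4 libraries 367 to 578. MiR-6539 rose from 314 and 295 to 1981 and 2318 (log2 change 2.81, SE 0.17, limma adjusted p = 3.53e-07).

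MiR-210-5p, the passenger arm of the hypoxia-induced miR-210, rose from 121 and 101 to 693 and 592 (log2 change 2.52, SE 0.31, limma adjusted p = 1.28e-04). The 3p arm of that hairpin held 205 and 132 at day 5 and 1385 and 1545 in P15 without passing the test (limma adjusted p = 0.362). Its SE of 1.91 came from the fit over all 9 groups. MiR-126a-5p of the endothelial gene Egfl7 held 119 and 186 against 961 and 1043 (log2 change 2.74, limma adjusted p = 5.37e-04). MiR-582-3p, in an intron of Pde4d, held 56 and 38 against 285 and 346 (log2 change 2.74, limma adjusted p = 0.00421, and 0.0597 at equal totals). For miR-210-3p too no day 5 library reached a P15 library. The naming rule required this of miR-210-5p, miR-126a-5p and miR-582-3p.

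A further 3 miRNAs that met the naming rule are listed at 0 in both day 5 libraries, so no fold change is given. The first, miR-25-3p of the miR-106b-25 cluster inside Mcm7, held 12305 and 14185 in P15. In the 14 libraries of the other groups it was listed at 1716 to 8869. The opposite arm of its hairpin, miR-25-5p, held 752 and 686 at day 5 and 651 and 566 in P15, so that arm was listed in both groups. MiR-294-5p was listed at 524 and 558 in P15 while miR-294-3p held 3393 and 2534 at day 5 and 4629 and 5227 in P15. MiR-6236 was listed at 200 and 228 in P15. Zeros of this kind also fell within a group, since miR-290a-5p was listed at 0 in P15 replicate 1 and at 710 in replicate 2.

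**Figure D1:**
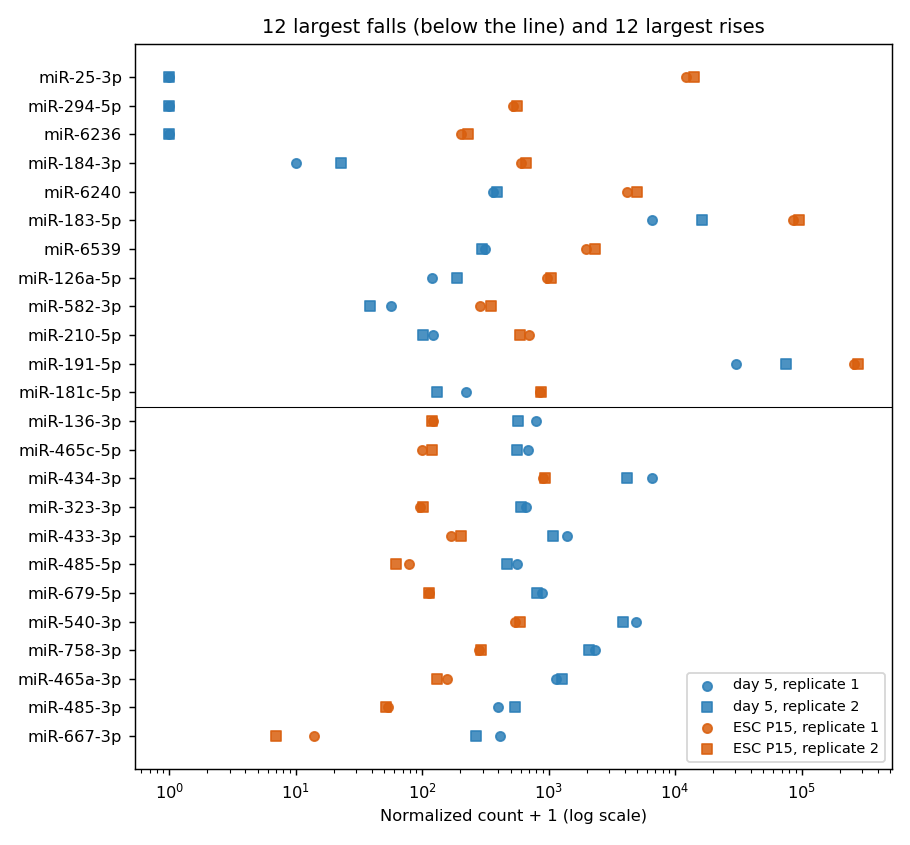
Normalized count + 1 (log scale) in the 2 day 5 libraries (blue) and the 2 P15 libraries (orange) for the 12 largest rises, above the line, and the 12 largest falls, below it. The 2 colours are apart in every row, as the naming rule required. MiR-25-3p, miR-294-5p and miR-6236 stand at a value of 0 at day 5.

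The miRNAs that fell came first from the Dlk1-Dio3 region, which supplied 10 of the 12 largest falls. Of the 100 rows of the region, 85 were tested, and 36 of these fell and 0 rose, against 11.5% lower and 6.78% higher over all tested miRNAs. Their median log2 change was -2.38, against -0.07 for all tested miRNAs. In 78 of the 85 both P15 libraries lay below both day 5 libraries, against 35.5% over all tested miRNAs. Fitted with only the day 5 and ESC groups, 73 of the 85 fell and 0 rose, against 194 lower and 103 higher of all 811 in that fit. With all values raised to 27, the highest of the lowest listed values of the 18 libraries, the median was -1.11. At that floor 38 fell, against 92 of all 811. The region made up 11.8% and 11.4% of all normalized counts at day 5 and 1.75% and 1.84% in P15.

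MiR-667-3p, at chr12:109720061-109720083 on the plus strand, held 414 and 267 at day 5 and 13 and 6 in P15 (log2 change -5.07, SE 0.36, limma adjusted p = 1.63e-06). Among the more abundant members, miR-540-3p held 4910 and 3890 against 545 and 597 (log2 change -2.94, SE 0.15, limma adjusted p = 8.19e-08). MiR-409-3p, in an intron of Mirg, is outside the naming rule and was chosen after its values were seen, with 8666 and 8779 against 1514 and 1643 (log2 change -2.47, SE 0.09, limma adjusted p = 8.96e-09). The replicates of miR-540-3p and miR-409-3p lay closer together than the median difference between replicates in both groups, and those of miR-667-3p lay further apart. The most abundant member, miR-541-5p, also in an intron of Mirg, held 26339 and 39050 against 9725 and 9683 (log2 change -1.72, SE 0.35, limma adjusted p = 0.00415). It was the only Dlk1-Dio3 member among the 5 most abundant miRNAs of day 5.

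Of the 10 tested arms of 5 hairpins antisense to Rtl1, the retrotransposon-derived gene they repress, 4 fell and 0 rose (11.5% and 6.78% over all tested miRNAs). This grouping was made after the values were seen. MiR-434-3p held 6582 and 4184 at day 5 and 896 and 943 in P15 (log2 change -2.51, limma adjusted p = 2.56e-05). MiR-433-3p held 1394 and 1087 against 169 and 200 (log2 change -2.74, limma adjusted p = 6.3e-06), and miR-136-3p held 793 and 572 against 121 and 119 (log2 change -2.48, limma adjusted p = 0.00162). The fourth was miR-431-5p (log2 change -2.10, limma adjusted p = 2.24e-04). The other 6 arms did not pass, with limma adjusted p between 0.288 and 0.546, among them miR-127-3p, about as abundant as miR-434-3p (log2 change -1.21, limma adjusted p = 0.29). In all 10 both P15 libraries lay below both day 5 libraries, as they did for 35.5% of all tested miRNAs. From further along the region, miR-758-3p, miR-679-5p, miR-323-3p, miR-485-3p and miR-485-5p fell with log2 changes between -3.14 and -2.68. Their groups did not overlap, which the naming rule required.

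Lower levels in P15 were found at both ends of the region. The 82 tested members with a position span 184 kb, chr12:109563710-109747949, from miR-770-5p to miR-3072-3p, and 80 of them had a log2 change below 0. Of the 82, 35 were called lower (11.5% over all tested miRNAs), and none lies between 54.6 and 145 kb. The first 54.6 kb hold 26 of them, with a median change of -2.50 and 9 called lower. The stretch from 145 to 184 kb holds 56, with a median of -2.35 and 26 called lower. The exceptions were miR-673-5p, with 102 and 151 against 152 and 186 (log2 change 0.43, limma adjusted p = 0.991), and miR-432, listed at 0 in all 4 libraries. Of the 33 positioned members that averaged 100 or more across these 4 libraries, 24 fell. Under a similar but not equal filter, at least 100 in at least 2 of the 18 libraries, 80 of 386 miRNAs were lower.

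**Figure D2:**
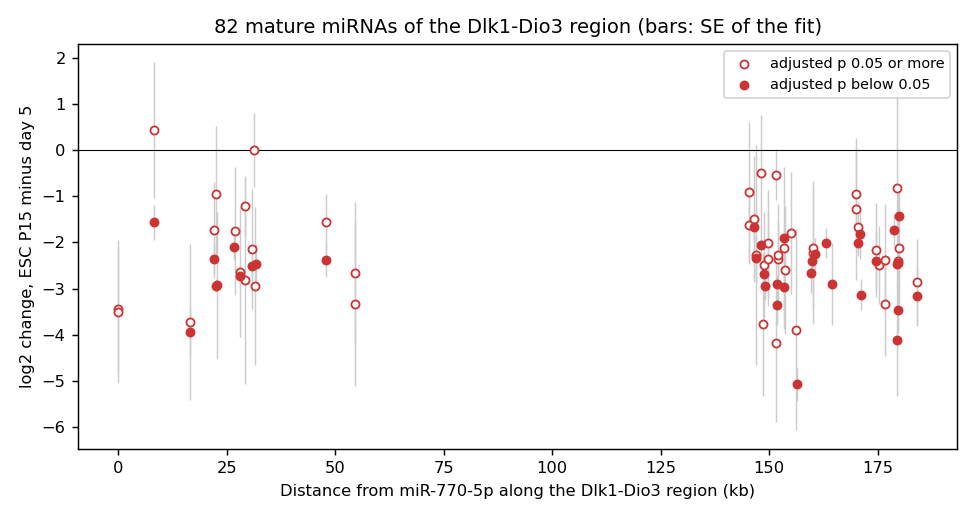
Log2 change between P15 and day 5 (y axis, bars are the SE of the fit) against distance from miR-770-5p in kb for the 82 positioned miRNAs of the Dlk1-Dio3 region. Filled points passed the test; all of these lie below 0 in both the first 54.6 kb and the stretch from 145 to 184 kb.

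The X-linked miR-465/miR-470/miR-871 cluster fell as well, with 13 of 27 tested members lower (11.5% over all tested miRNAs), 0 higher and a median log2 change of -2.50. MiR-465a-3p, at chrX:66839063-66839084 on the minus strand, held 1152 and 1269 at day 5 and 157 and 129 in P15 (log2 change -3.08, SE 0.15, limma adjusted p = 8.19e-08). MiR-465b-3p and miR-465c-3p have the same sequence and the same values, so the 3 rows are 1 measurement. MiR-465c-5p held 682 and 557 against 99 and 118 (log2 change -2.50, SE 0.16, limma adjusted p = 8.74e-07). MiR-743b-3p held 180 and 175 against 3 and 7 (log2 change -4.98, limma adjusted p = 3.54e-07), and miR-470-5p, the most abundant member, held 3500 and 7028 against 1198 and 1357 (log2 change -1.96, SE 0.47, limma adjusted p = 0.0112). The call of miR-470-5p was lost without either P15 replicate or without day 5 replicate 2, with limma adjusted p between 0.0577 and 0.123. The share of the cluster was 1.36% and 1.88% at day 5 and 0.188% and 0.182% in P15. Because many of its members are low, its median change was 0.00 once all values were raised to 27. At that floor 10 members fell, against 92 of all 811 tested miRNAs.

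Falls were also seen in the Sfmbt2 cluster families miR-297, miR-466, miR-467 and miR-669, which sit in an intron of the imprinted gene Sfmbt2 and are prominent in trophoblast. Of 52 tested rows 14 fell and 0 rose, against 11.5% lower and 6.78% higher over all tested miRNAs, with a median log2 change of -0.75. The median was 0.00 with values raised to 27 and -1.43 at equal totals, where 14 and 18 rows fell. Of all 811 tested miRNAs 92 and 128 fell under these settings. MiR-467b-5p held 394 and 357 at day 5 and 90 and 100 in P15 (log2 change -1.97, SE 0.41, limma adjusted p = 0.00473, and 0.0863 under quantile normalization), and miR-467a-5p, the most abundant, 888 and 1349 against 550 and 630 (log2 change -0.89, SE 0.24, limma adjusted p = 0.02). The call of miR-467a-5p was lost without either P15 replicate or without day 5 replicate 2. These hairpins are near-identical copies, and several rows have the same values in all libraries, so which copy a read came from is uncertain. The families held 1.3% of the counts in both day 5 libraries and 0.410% to 0.488% in P15.

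The ESC cluster miR-290-295 was present at like shares in both groups, 11.1% and 7.91% of all counts at day 5 and 11.1% and 11.4% in P15. On the deposited scale 10 of its 14 tested members rose (6.78% over all tested miRNAs) and 0 fell, with a median log2 change of 0.78. The 10 include miR-294-5p, listed at 0 in both day 5 libraries. Changes below 0 were those of 2 members, miR-290a-5p, listed at 0 in P15 replicate 1, and miR-291b-3p, with 842 and 177 against 311 and 312. Brought to the same total, the median of the cluster was 0.05, and 2 members rose (27 of all 811 tested miRNAs). Under quantile normalization it was 0.51, and 6 rose (73 of all 811). The most abundant member, miR-292-5p, held 20831 and 16837 at day 5 and 42534 and 53924 in P15 (log2 change 1.35, SE 0.13, limma adjusted p = 2.89e-05). It kept its direction and lost its call under both scalings, with limma adjusted p of 0.0799 and 0.108.

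Members of miR-290-295 moved to different extents. MiR-293-5p rose from 1957 and 1263 to 5110 and 6098 (log2 change 1.83, SE 0.23, limma adjusted p = 1.29e-04) and miR-290a-3p from 430 and 299 to 1119 and 1101 (log2 change 1.63, SE 0.38, limma adjusted p = 0.0104). The call of miR-290a-3p was lost without either P15 replicate or without day 5 replicate 2, with limma adjusted p between 0.058 and 0.0931, and at equal totals (0.285). Of the members with the AAGUGCU seed, miR-295-3p held 20543 and 15645 against 29447 and 24960 (log2 change 0.60, SE 0.16, limma adjusted p = 0.024). At equal totals its change was -0.14 (limma adjusted p = 0.965), and the call was also lost without P15 replicate 1 (0.196) or day 5 replicate 2 (0.223, change 0.40). MiR-294-3p, with the counts given above, had a log2 change of 0.75 (limma adjusted p = 0.0304) and lost its call without either P15 replicate or without day 5 replicate 2. MiR-291a-3p held 1148 and 889 against 1753 and 1618 without passing (log2 change 0.74, SE 0.26, limma adjusted p = 0.0835). Changes as small were found without that seed, as in miR-291b-5p, chosen after its values were seen, with 2270 and 2137 against 3171 and 3061 (log2 change 0.50, limma adjusted p = 0.0401), and no test compared members by seed.

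MiR-302/miR-367, the primed-epiblast cluster, lay lower in P15 than at day 5 in each of its 8 tested members, with a median log2 change of -1.22. In each both P15 libraries lay below both day 5 libraries, against 35.5% over all tested miRNAs. By the test 2 of the 8 fell, against 11.5% over all tested miRNAs. At equal totals the median was -1.94 with 4 falls (128 of all 811 tested miRNAs), and under quantile normalization none fell (89 of all 811). MiR-302b-3p held 434 and 316 at day 5 and 120 and 107 in P15 (log2 change -1.70, SE 0.44, limma adjusted p = 0.0173). That call was lost without either P15 replicate or without day 5 replicate 1, with limma adjusted p between 0.0598 and 0.134. The most abundant member, miR-302d-3p, held 820 and 467 against 377 and 382 (log2 change -0.70, SE 1.43, limma adjusted p = 0.928). Its SE came from the spread between replicates in all 9 groups, such as 27 and 0 in the ICM and 0 and 18 at day 0.5. Across the series the cluster ran from 0.00448% of the counts in an ICM library to 0.493% in a P2 library.

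**Figure D3:**
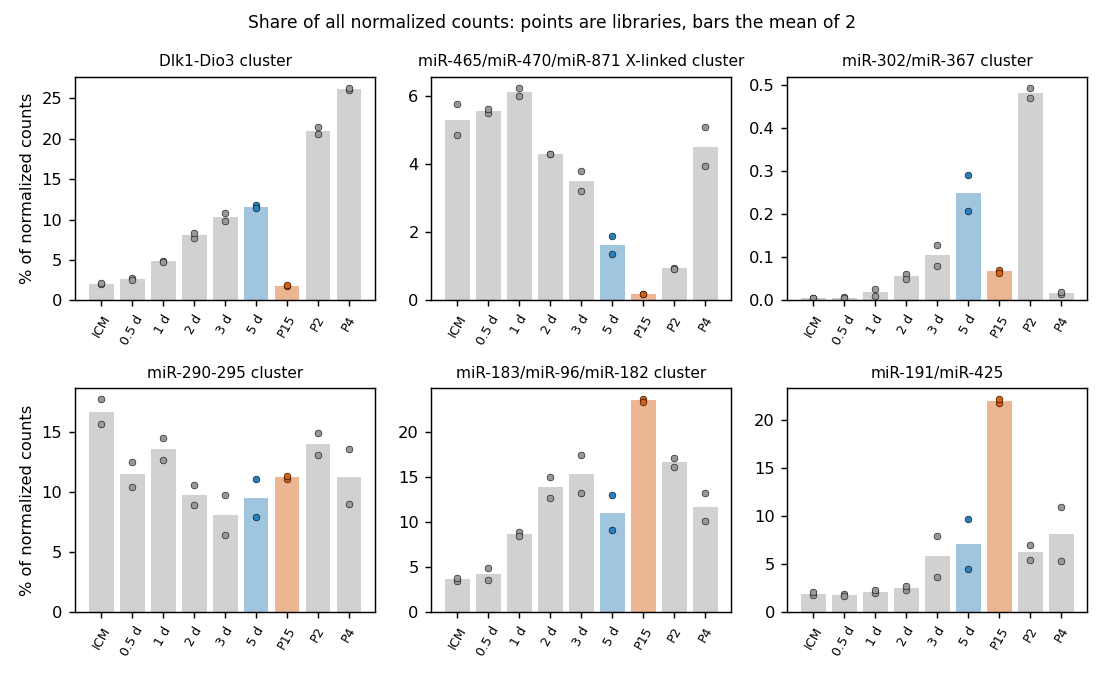
Share of all normalized counts (percent) held by 6 clusters in each of the 18 libraries (points) and the mean of the 2 libraries (bars), with day 5 in blue and P15 in orange. Dlk1-Dio3 stands at 1.75% and 1.84% in P15 against 11.8% and 11.4% at day 5, and miR-191/miR-425 at 21.8% and 22.2% against 4.47% and 9.66%.

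Among miRNAs of proliferation, miR-92a-3p of the miR-17-92 cluster was the most abundant miRNA of day 5, with 173152 and 158005, and held 137705 and 151810 in P15 (log2 change -0.19, SE 0.10, limma adjusted p = 0.259). In that cluster 1 of 11 tested members rose, a share near the 6.78% over all tested miRNAs. It was the passenger arm miR-92a-1-5p (log2 change 0.75), whose change was 0.01 at equal totals (limma adjusted p = 1) and 0.48 under quantile normalization (limma adjusted p = 0.153). The share of the cluster, nearly all miR-92a-3p, went from 25.5% and 20.7% to 12.1% and 12.5%, with larger totals in P15. Its summed normalized counts were 177858 and 161816 at day 5 and 143934 and 157630 in P15. MiR-92a-3p has 2 loci, in Mir17hg on chromosome 14 and near miR-363-3p on the X chromosome, and its counts cannot be split between them. MiR-93-5p of the paralogous miR-106b-25 cluster rose from 3304 and 2386 to 6691 and 6624 (log2 change 1.25, SE 0.17, limma adjusted p = 2.16e-04), with a change of 0.51 at equal totals (limma adjusted p = 0.304). The 7 tested members of miR-106a-363 had a median log2 change of -1.14 and none passed the test. MiR-16-5p, a repressor of G1 cyclins, rose from 10685 and 11841 to 28514 and 28764 (log2 change 1.35, SE 0.16, limma adjusted p = 9.5e-05).

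Of 45 tested miRNAs in the differentiation lists 5 rose and 5 fell, with both directions in let-7 and miR-30, and of 17 in the host-gene lists 8 rose and 3 fell, against 6.78% higher and 11.5% lower over all tested miRNAs. In the miR-181 family both P15 libraries lay above both day 5 libraries in all 6 tested members (26.3% over all tested miRNAs). Their median log2 change was 2.16, and 1 rose by the test. That was miR-181c-5p, at chr8:84178924-84178945 in an intron of Nanos3, with 223 and 129 against 855 and 865 (log2 change 2.33, SE 0.51, limma adjusted p = 0.00666). Without day 5 replicate 2 its adjusted p was 0.0676. Its neighbour miR-181d-5p held 126 and 117 against 1268 and 1297 and did not pass (log2 change 3.39, SE 1.49, limma adjusted p = 0.172). With only the day 5 and ESC groups in the fit, 5 of the 6 rose, against 103 of all 811 tested miRNAs. At equal totals none did, against 27 of all 811.

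MiR-27b-3p rose from 3573 and 4797 to 16929 and 18850 (log2 change 2.11, SE 0.27, limma adjusted p = 1.77e-04). In the miR-130/miR-301 family 4 of 6 rose (6.78% over all tested miRNAs), led by miR-301b-3p with 263 and 266 against 893 and 898 (log2 change 1.76, SE 0.24, limma adjusted p = 2e-04). After scaling to equal totals only 1 of that family rose and 1 fell, against 27 and 128 of all 811 tested miRNAs. Of the 11 tested let-7 and miR-98 rows 1 rose and 3 fell, against 6.78% and 11.5% over all tested miRNAs. Let-7c-5p held 107 and 104 against 318 and 303 (log2 change 1.55, and 0.82 at equal totals with limma adjusted p = 0.0949). Let-7f-5p held 838 and 884 against 600 and 539 (log2 change -0.60). The call of let-7f-5p, at limma adjusted p = 0.0173, was lost without 3 of the 4 libraries.

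Among Drosha-independent miRNAs 5 of 11 fell and 0 rose, against 11.5% lower and 6.78% higher over all tested miRNAs. Their median log2 change was -1.62, or -0.83 with values raised to 27. MiR-877-5p, a mirtron of Abcf1, held 574 and 278 against 133 and 126 (log2 change -1.62, SE 0.42, limma adjusted p = 0.0192), a call lost without P15 replicate 1 or 2 or day 5 replicate 1. MiR-351-5p of the X-linked miR-322/503 cluster held 7234 and 11223 against 3339 and 3350 (log2 change -1.43, SE 0.29, limma adjusted p = 0.00415). It was the 1 of 11 tested members of that cluster to fall, a share near the 11.5% over all tested miRNAs.

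MiRNAs that repress DNA methyltransferases, miR-148 and miR-152, included 1 riser among 6, against 6.78% over all tested miRNAs. It was miR-148a-3p, with 3680 and 5732 against 11690 and 12372 (log2 change 1.39, SE 0.31). Its limma adjusted p was 0.00756, and 0.0578 without P15 replicate 2 and 0.0882 without day 5 replicate 1. In the epithelial miR-200 family all 8 were higher without overlap of the groups (26.3% over all tested miRNAs), with a median of 1.03. By the test miR-200b-3p rose, from 772 and 742 to 1591 and 1261 (log2 change 0.90, SE 0.14, limma adjusted p = 5.82e-04). After scaling to equal totals this change was 0.17 (limma adjusted p = 0.804). Of the Hox-cluster miRNAs miR-10 and miR-196, 1 of 5 rose, against 6.78% over all tested miRNAs. It was miR-10a-5p, with 68 and 179 against 395 and 399 (log2 change 1.84, limma adjusted p = 0.023), and that call was lost without 3 of the 4 libraries.

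Both arms of miR-423 fell, miR-423-5p from 3084 and 2604 to 1512 and 1267 (log2 change -1.03, SE 0.12, limma adjusted p = 9.5e-05) and miR-423-3p from 3979 and 3172 to 2494 and 1947 (log2 change -0.69, SE 0.15, limma adjusted p = 0.00649). MiR-22-3p, with 17184 and 14250 against 10944 and 10712, fell by 0.53 on the log2 scale (SE 0.10, limma adjusted p = 0.0029), and miR-335-5p of the imprinted Mest gene, with 534 and 461 against 218 and 179, by 1.32 (SE 0.31, limma adjusted p = 0.00941). The calls of miR-335-5p and miR-423-3p were lost without P15 replicate 2 or day 5 replicate 1, and that of miR-335-5p under quantile normalization (limma adjusted p = 0.35). Both arms of miR-21a rose on the deposited scale, miR-21a-5p from 945 and 653 to 1246 and 1258 (log2 change 0.67, SE 0.19, limma adjusted p = 0.0246), but at the same total the change of miR-21a-5p was -0.06. Its call was also lost without P15 replicate 1 (limma adjusted p = 0.103), P15 replicate 2 (0.11) or day 5 replicate 2 (0.225, change 0.41). None of the tested rows passed in miR-34/miR-449 (4 rows), miR-221/miR-222 (4), miR-125/miR-99/miR-100 (8), miR-26/miR-101 (7), miR-29 (1), miR-296/miR-298 (4), miR-708 (2) and miR-132/miR-212 (3). The largest median size among these 8 lists was that of miR-221/miR-222, at -1.64. The most abundant member of that list, miR-222-3p, held 199 and 234 against 51 and 57 (log2 change -1.98, SE 0.995, limma adjusted p = 0.251). Rows that did not pass are not shown to be unchanged, since the SE pools the replicate spread of all 9 groups.

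**Figure D4:**
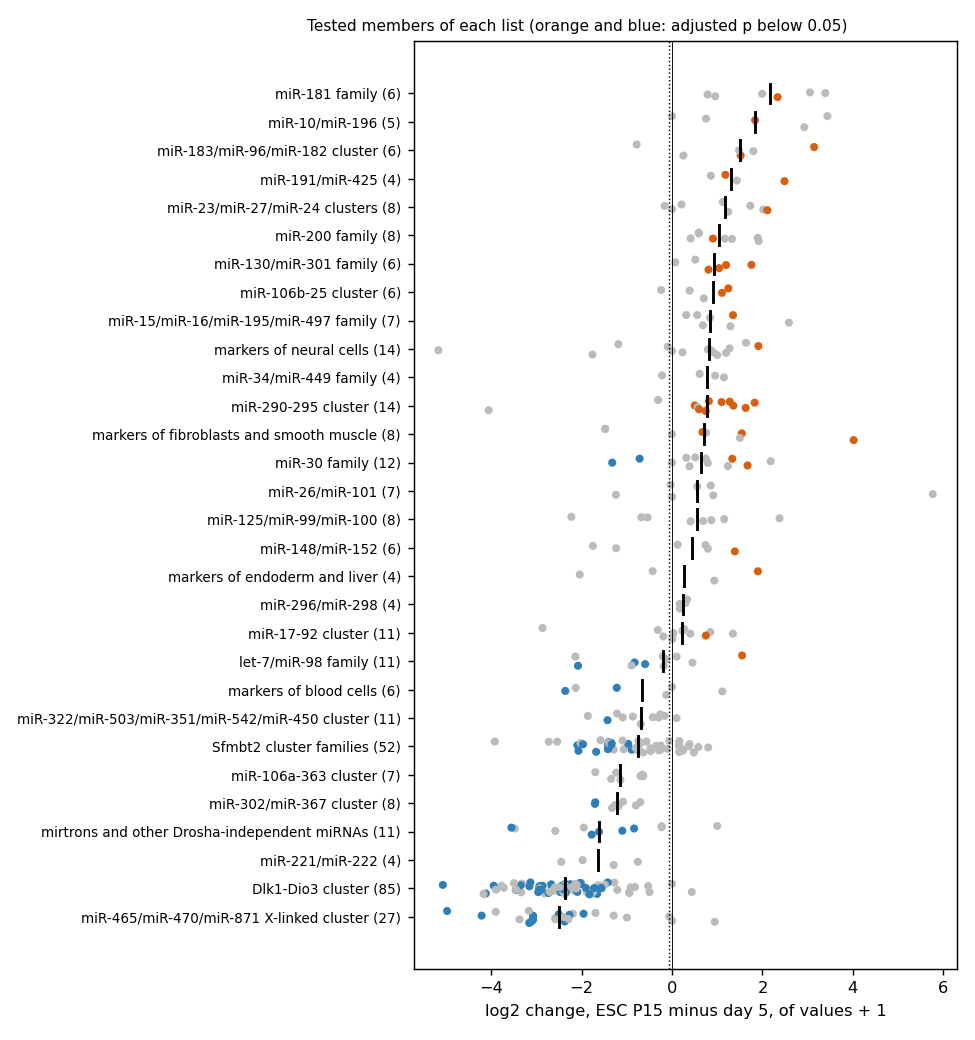
Log2 change between P15 and day 5 of each tested member of the lists with at least 4 tested members (count in parentheses), with the list median as a black bar and the median of all tested miRNAs, -0.07, as a dotted line. Orange and blue points rose and fell by the test; Dlk1-Dio3 and miR-465/miR-470/miR-871 have medians of -2.38 and -2.50. MiR-25-3p and miR-294-5p, at 0 at day 5, are not drawn.

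Of 37 tested markers of other cells 6 were higher and 2 lower, against 6.78% and 11.5% over all tested miRNAs. The markers were low in both groups. Those of fibroblasts and smooth muscle summed to 0.466% to 0.531% of the counts at day 5 and 0.476% to 0.488% in P15, with 3 of 8 tested members higher and miR-143-3p at 619 and 680 against 1784 and 2009 (log2 change 1.54, limma adjusted p = 6.92e-04). Blood markers held 0.360% to 0.426% and 0.0868% to 0.0923%, with 2 of 6 lower, led by miR-150-5p at 1856 and 1095 against 298 and 256 (log2 change -2.36, limma adjusted p = 6.24e-04). Endoderm and liver markers held 0.213% in both day 5 libraries and 0.283% to 0.317% in P15, with 1 of 4 higher. Neural markers held 0.116% to 0.148% and 0.0929% to 0.0949% with 1 of 14 higher, near the 6.78% over all tested miRNAs. Endothelial markers held 0.0228% to 0.0281% and 0.0895% to 0.0902% with 1 of 2 higher, and muscle markers at most 0.00833% throughout with no call among 3. Listed at 0 in all 4 libraries were 9 of the 59 marker rows, among them miR-122-5p of liver, miR-223-3p and miR-451a of blood and miR-206-3p of muscle. The part of such cells in the differences was not tested, and in bulk libraries fewer cells of a type and less RNA per cell cannot be told apart.

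Summed over miRNAs that share bases 2 to 8, 106 of 572 seed families differed (18.5%), with 40 higher (6.99%) and 66 lower (11.5%). Most of the largest changes belonged to families of 1 miRNA, such as AUGGCAC (miR-183-5p) and GACACCU (miR-667-3p). The largest fall of a family by the naming rule was that of AAAGACA, which holds miR-743a-3p and miR-743b-3p, from 202 and 189 to 3 and 7 (log2 change -5.12, SE 0.29, limma adjusted p = 2.22e-07). Of the 34 families with at least 3 members 7 rose and 2 fell, and both that fell, AUCAGGG and AUUUAGA, are miR-465 arms. The families named next were chosen after their values were seen.

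The miR-181 seed ACAUUCA rose from 953 and 653 to 3800 and 3862 (log2 change 2.28, SE 0.35, limma adjusted p = 5.09e-04), a call that 1 of its 4 members had alone. AGCAGCA, carried mainly by miR-16-5p, rose from 12260 and 13429 to 30017 and 30155 (log2 change 1.23, limma adjusted p = 9.75e-05), and AAAGUGC, carried mainly by miR-93-5p, from 6284 and 4822 to 9985 and 9514 (log2 change 0.82, limma adjusted p = 0.00245). The ESC seed AAGUGCU held 26338 and 19851 at day 5 and 36326 and 32294 in P15 (log2 change 0.58, SE 0.16, limma adjusted p = 0.0252), with miR-302b-3p and miR-302d-3p counted in it. At equal totals the change of AAGUGCU was -0.15 (limma adjusted p = 0.968), and its call was lost without either P15 replicate or without day 5 replicate 2, with limma adjusted p between 0.0594 and 0.245. AAAGUGC lost its call at equal totals, with a change of 0.09. AUUGCAC, the most abundant of these families, held 198483 and 194191 against 167170 and 183223 and did not pass (log2 change -0.17, SE 0.11, limma adjusted p = 0.408), although miR-25-3p within it went from a listed 0 in both day 5 libraries to 12305 and 14185.

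The ratio of 5p to 3p arms differed for 3 of 121 hairpins (2.48%) by limma, higher in P15 for 1 (0.826%) and lower for 2 (1.65%). For miR-25 and miR-294 the difference rests on the arm listed at 0 at day 5. For miR-21a the 5p arm held 945 and 653 at day 5 and 1246 and 1258 in P15, and the 3p arm 0 and 3 against 24 and 41 (log2 change of the ratio -3.35, SE 0.69, limma adjusted p = 0.0347). The call of miR-25 remained without each of the 4 libraries in turn, that of miR-21a only without day 5 replicate 2, and that of miR-294 was lost in each case.

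The other ESC groups, coded P2 and P4, were set against P15 directly, since comparisons of each with day 5 share the day 5 libraries. P15 differed from the mean of P2 and P4 for 159 miRNAs (19.6%), higher for 74 (9.12%) and lower for 85 (10.5%). Of the 85 tested Dlk1-Dio3 members 54 were lower in P15 than in that mean and 0 higher, with a median log2 difference of -3.40. The region held 20.5% and 21.4% of all counts in P2, 26.1% and 26.3% in P4, and 2.00% and 2.11% in the ICM. MiR-409-3p, for example, stood at 11921 and 11160 in P2 and 18304 and 17703 in P4 (log2 difference of P15 -3.19, limma adjusted p = 2.21e-10).

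The X-linked cluster was lower in P15 than in the other ESCs for 14 of its 27 members, and 0 were higher. The largest falls from the mean of P2 and P4 by the naming rule were those of the X-linked miR-743b-3p, miR-741-3p and miR-878-5p and of miR-494-3p and miR-665-3p of Dlk1-Dio3. MiR-741-3p held 154 and 184 in P2 and 948 and 315 in P4, against 14 and 10 in P15 and 11 and 14 at day 5 (log2 difference from P2 and P4 -4.57, limma adjusted p = 2.11e-05). It was thus low in both groups compared here. Where P15 was higher, miR-6240 held 375 and 367 in P2 and 578 and 429 in P4 (log2 difference 3.40, limma adjusted p = 8.71e-06) and miR-210-5p 57 and 47 in P2 and 155 and 163 in P4 (log2 difference 2.80, limma adjusted p = 1.08e-05).

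MiR-184-3p held 10 and 12 in P2 and 199 and 85 in P4 (log2 difference 4.00, limma adjusted p = 0.0494). MiR-191-5p held 41181 and 55977 in P2 and 132181 and 47602 in P4 (log2 difference 2.12, limma adjusted p = 0.00966), and miR-183-5p 11977 and 17860 in P2 and 39641 and 13597 in P4 (log2 difference 2.30, limma adjusted p = 0.0104). In all 3 no P2 or P4 library reached a P15 library, which the naming rule required of miR-184-3p. Each of these calls was lost without either P15 replicate, as were those of miR-494-3p and miR-665-3p. MiR-148b-3p and miR-92b-3p also met the rule, but both have zeros in P2, and miR-148b-3p in P4 replicate 1 too, so no size is given.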

How the data were processed

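Small RNA was sequenced on an Illumina GAIIx in 18 libraries of 9 groups. The deposited table gives a normalized count score per miRNA and library, rounded to whole numbers by the authors. The submitters' processing notes name cutadapt, DESeq2 1.30.0 and mm10. The aligner is not given in the sources used here, nor is the miRNA annotation. Reads behind the 4 libraries were bounded at 2322100 to 7833250 by taking the lowest listed value as 5 reads, which is an assumption.

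Values were tested as log2(score + 1) with limma 3.58.1 (R 4.3.3, trend and robust) on all 9 groups, for miRNAs of at least 10 in at least 2 libraries, after a check on simulated data. That check, with an assumed spread, recovered 56 of 106 log2 changes of size 1 and 73 of 94 of size 2. It also called 10 of 554 simulated miRNAs without a change. Seed families used summed scores, and arm ratios log2((5p + 1)/(3p + 1)). The naming rule took the 12 largest rises and falls at adjusted p below 0.05, an average of 100 or more across the 4 libraries and groups that did not overlap, the 5 most abundant miRNAs of each group, the most abundant and the most changed called member of each list, and 5 families and 3 hairpins each way. For P15 against P2 and P4 it took 5 each way. The comparison and the 40 lists were chosen with earlier results of these data known. An exact permutation test of 2 against 2 libraries cannot go below p = 0.333. Locations come from RefSeq (GRCm38.p6) and GENCODE M21, of the same build as mm10.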

Additional observations from a re-analysis of the deposited data

Results flagged for a closer look

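Of the 811 tested miRNAs, 49 differed between P15 and day 5 and between P15 and the mean of P2 and P4 (limma, adjusted p below 0.05), with P15 and that mean, on log2 values, on opposite sides of day 5. P15 was below day 5 for 45 of them and above it for 4, and 31 belong to the Dlk1-Dio3 region and 12 to the X-linked cluster. Of these, 16 are listed here with their log2 difference of P15 from the mean of P2 and P4, counting rows with identical values once. MiR-431-5p (-3.43) and miR-291b-5p (0.67), also named above, are outside those 16. MiR-431-5p was below day 5 in P15, with all P2 and P4 libraries above day 5. MiR-291b-5p was above day 5 in P15, with the P2 libraries below day 5 and the P4 libraries above it.

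MiR-210-5p was above day 5 in P15 (2.80), while the P2 libraries lay below day 5 and the P4 libraries above it. The other 15 were below day 5 in P15. Of the Dlk1-Dio3 region these were miR-679-5p (-3.85), miR-323-3p (-3.74), miR-758-3p (-3.70), miR-434-3p (-3.65), miR-136-3p (-3.41), miR-540-3p (-3.29), miR-541-5p (-3.22), miR-409-3p (-3.19) and miR-433-3p (-3.05). Of the X-linked cluster they were miR-743b-3p (-5.51), miR-878-5p (-4.56), miR-465c-5p (-3.99), miR-465a-3p (-3.70) and miR-470-5p (-2.17), and from elsewhere miR-22-3p (-0.82). For miR-465a-3p, miR-470-5p, miR-540-3p and miR-433-3p the P2 libraries lay below day 5 and the P4 libraries above it, and for miR-22-3p the P2 libraries overlapped day 5. For the remaining 10 all P2 and P4 libraries lay above both day 5 libraries.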

How the results depend on the processing

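The count of 148 miRNAs was 297 with only the day 5 and ESC groups in the fit and 290 with array weights. It stayed between 134 and 182 under the other alternatives with all libraries. With only the 2 compared groups in the fit it was 170. That fit lost the calls of miR-183-5p, miR-191-5p, miR-541-5p and miR-150-5p, among others (limma adjusted p = 0.0829, 0.115, 0.0604 and 0.0617). Leaving out 1 library gave 107 to 125. P15 against P2 and P4 gave 159 calls, 308 with those 4 groups, 352 with array weights, and 101 to 109 without 1 P15 library. Its split went from 74 higher and 85 lower to 43 and 93 at the same total. Seed families went from 106 to 203 with the 4 groups, and 79 to 90 without 1 library. Arm ratios went from 3 hairpins to 28 with the 4 groups, 7 with a pseudocount of 10, and 1 to 2 without 1 library. A replicate block gave 141 miRNAs, 154 against P2 and P4, 105 families and 2 hairpins. Same-numbered P15 and day 5 libraries did not deviate together (correlation -0.02). With 2 libraries a group this cannot show whether the numbers pair them.

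Of 1206 alternatives for the 55 named miRNAs called, 1097 kept direction and call, 108 lost the call and 1 changed sign, miR-21a-5p at the same total (-0.0603). Among the 108 was miR-182-5p under quantile normalization, where its equal rank fixed the change at 0.00. The causes were not tested. Chosen after seeing the data were a floor of 27 (161 calls), leaving out 12 miRNAs listed at 0 in 1 deep library and at 200 or more in another (145), and the same total without the 3 most abundant P15 miRNAs (157, 40 higher and 117 lower). A value at the lowest listed level stands for few reads, so miRNAs near it were coarsely measured.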
